A study of Mus musculus with 18 samples.

Results

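The 10 genes described here encode proteins that silence germline genes in somatic cells of the mouse. They were chosen by their names and known roles, with earlier results of these data known, and all 10 were found among the 34244 named genes of the expression table and among the 19397 genes that were high enough to be tested. 6 of them, E2f6, Mga, Max, Pcgf6, L3mbtl2 and Cbx3, encode subunits of PRC1.6, a variant of the Polycomb repressive complex 1. The other 4, Setdb1, Trim28, Ehmt1 and Ehmt2, act in the methylation of lysine 9 of histone H3 (H3K9).

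In PRC1.6, E2f6 with its Dp partner, and Mga with Max, are the DNA-binding subunits. E2f6 recognises E2F sites and the Mga and Max pair recognises E-boxes, and both kinds of site occur in promoters of germline genes. Pcgf6 is the Polycomb group ring finger protein that defines the complex, L3mbtl2 is a malignant brain tumor domain protein, and Cbx3 (HP1 gamma) binds methylated H3K9. Trim28 (KAP1) is brought to DNA by KRAB zinc finger proteins and in turn brings in the H3K9 methyltransferase Setdb1, while Ehmt1 (GLP) and Ehmt2 (G9a) work as a pair that dimethylates H3K9. Many of the promoters these proteins act on are CpG-rich and carry DNA methylation in somatic cells, which is laid down in the embryo largely by Dnmt3b.

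RNA-seq was made from 9 whole live FVB embryos at E11.5, 1 library per embryo, with 3 embryos of each of 3 Dnmt3b genotypes. Dnmt3b+/+ embryos carry the wild-type gene, Dnmt3b-/- embryos lack a functional allele from a conventional knockout, and Dnmt3bCI/CI embryos carry a catalytically inactive (CI) Dnmt3b made by CRISPR/Cas9 editing of the endogenous gene. No treatment was applied and the embryos came from natural matings of heterozygous Dnmt3b+/- and Dnmt3b+/CI mice. Which cross gave the Dnmt3b+/+ embryos is not stated. Because RNA came from whole embryos, fewer cells of a type and less RNA per cell cannot be told apart. The study set the null allele beside the inactive allele to separate the loss of the protein from the loss of its enzymatic activity, and the same 3 contrasts are followed here for the repressor genes.

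Levels are given in FPKM, read numbers divided by exon length and by library size. The libraries rested on 38451730 to 49808777 reads, as worked back from the table, and the members had from 729 reads (L3mbtl2) to 22219 reads (Trim28) in a library. Counting alone therefore gives a coefficient of variation of 0.671% to 3.7%, and the spread between embryos of a genotype was 0.371% to 8.47%. Dnmt3b itself was higher in the embryos labelled Dnmt3b-/-, by 1.48-fold (95% interval 1.17 to 1.87, adjusted p of 0.0248 by limma), with 2.45, 3.12 and 3.33 FPKM against 2.25, 1.62 and 2.04 FPKM in Dnmt3b+/+ and 2.06, 1.98 and 2.32 FPKM in Dnmt3bCI/CI, so these embryos are named by their label. Marker genes set several libraries apart, and those named here were chosen after their values were seen. Dnmt3b+/+ replicate 2 had 0.119 FPKM of the hepatocyte gene Afp and 0.103 FPKM of Alb, against 52.0 and 93.3 FPKM of Afp and 43.7 and 85.7 FPKM of Alb in the other Dnmt3b+/+ embryos. Dnmt3b+/+ replicate 1 and Dnmt3bCI/CI replicate 3 had 0.104 and 0.210 FPKM of Nppa, a gene of the heart atria, against 3.74 to 38.7 FPKM in the other 7 embryos, although all 9 are labelled as whole embryos. Dnmt3b-/- replicate 1 had 17.2 FPKM of Myog, a gene of skeletal muscle, against 5.76 and 5.87 FPKM in the other Dnmt3b-/- embryos, and 376 FPKM of the embryonic globin gene Hba-x against 1347 and 713 FPKM. The FPKM value sums reads over the gene and does not say which part of it was read. A gene is said to rise or fall where its adjusted p is under 0.05 by limma with Benjamini-Hochberg adjustment over all 19397 genes, and fold changes are on the scale of log2(FPKM + 0.1).

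The promoters of the germline genes listed here as targets of E2f6 are shown first, with the letters of E2F sites and E-boxes marked where present. Stag3 and Smc1b encode cohesin subunits of meiosis, Tuba3a and Tuba3b encode testis alpha-tubulins, and Slc25a31 encodes the germline ADP/ATP carrier. The sequences run from 250 bases before to 50 bases after the RefSeq start site in GRCm38.p6, 5′ to 3′ on the strand of the gene. Capitals mark the E2F core TCCCGC, or its complement GCGGGA, and the E-box CACGTG, which reads the same on both strands.
Stag3, chr5:138280259-138280558, plus strand: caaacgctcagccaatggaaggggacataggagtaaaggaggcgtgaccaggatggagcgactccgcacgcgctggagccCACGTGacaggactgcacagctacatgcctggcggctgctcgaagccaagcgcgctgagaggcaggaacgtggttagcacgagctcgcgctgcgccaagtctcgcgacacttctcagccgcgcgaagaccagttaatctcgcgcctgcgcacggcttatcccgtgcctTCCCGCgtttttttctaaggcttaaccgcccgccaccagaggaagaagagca
Smc1b, chr15:85131908-85132207, minus strand: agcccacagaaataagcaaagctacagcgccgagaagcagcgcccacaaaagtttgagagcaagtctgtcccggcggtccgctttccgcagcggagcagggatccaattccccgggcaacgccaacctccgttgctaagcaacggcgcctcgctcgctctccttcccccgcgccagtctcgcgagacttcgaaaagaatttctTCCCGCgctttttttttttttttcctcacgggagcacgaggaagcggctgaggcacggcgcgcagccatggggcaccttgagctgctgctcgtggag
Tuba3a, chr6:125286032-125286331, minus strand: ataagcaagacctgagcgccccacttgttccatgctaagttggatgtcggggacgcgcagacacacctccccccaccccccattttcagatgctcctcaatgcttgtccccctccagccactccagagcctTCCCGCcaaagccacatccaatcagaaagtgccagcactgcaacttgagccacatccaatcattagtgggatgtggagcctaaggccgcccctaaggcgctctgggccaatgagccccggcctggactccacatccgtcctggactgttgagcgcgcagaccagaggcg
Tuba3b, chr6:145615713-145616012, plus strand: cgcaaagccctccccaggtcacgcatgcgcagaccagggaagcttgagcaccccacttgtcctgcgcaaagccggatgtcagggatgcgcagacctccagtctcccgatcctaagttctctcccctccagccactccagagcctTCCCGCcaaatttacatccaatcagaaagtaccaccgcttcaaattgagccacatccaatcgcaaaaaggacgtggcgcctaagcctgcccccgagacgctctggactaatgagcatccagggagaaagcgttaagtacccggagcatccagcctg
Slc25a31, chr3:40708621-40708920, plus strand: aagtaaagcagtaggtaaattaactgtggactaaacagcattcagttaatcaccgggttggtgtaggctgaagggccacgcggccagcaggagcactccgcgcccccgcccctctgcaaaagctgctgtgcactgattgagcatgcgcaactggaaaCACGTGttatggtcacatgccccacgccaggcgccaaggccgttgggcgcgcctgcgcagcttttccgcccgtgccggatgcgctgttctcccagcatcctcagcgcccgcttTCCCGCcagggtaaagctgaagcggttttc

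All 5 promoters held TCCCGC on the strand of the gene, which was found for 12.2% of the 27025 genes with a promoter in the RefSeq table (22% on either strand). The match began 2 bases upstream of the start site in Stag3, 47 in Smc1b, 119 in Tuba3a and 106 in Tuba3b, and at base 21 downstream in Slc25a31. Stag3 and Slc25a31 also held an E-box, 170 and 93 bases upstream, against 8.09% of all genes. Among 24 of 30 other germline genes with a promoter in the table, 8 held the E2F core on either strand and 11 held the E-box. On the strand of the gene 3 of the 24 held the E2F core, a share of 12.5% beside the 12.2% of all genes. The genes were listed with their biology known, so these shares describe the lists, and a match of letters is not evidence that a factor binds there.

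The members' own promoters held the same letters less uniformly. The E2F core was present on either strand for 4 of 10 members (E2f6, Trim28, Ehmt1 and Ehmt2), against 22% of all genes, and the E-box for Max and Ehmt2, against 8.09%. On the strand of the gene it was present for 1 of 10, against 12.2% of all genes. Cbx3 and Pcgf6, which rose, held neither motif, and E2f6 and Ehmt2, which did not pass the test, held the E2F core. Trim28, one of the members that rose, held the E2F core on both strands, 91 and 178 bases upstream of its start site, and its promoter is shown for that reason.
Trim28, chr7:13023902-13024201, plus strand: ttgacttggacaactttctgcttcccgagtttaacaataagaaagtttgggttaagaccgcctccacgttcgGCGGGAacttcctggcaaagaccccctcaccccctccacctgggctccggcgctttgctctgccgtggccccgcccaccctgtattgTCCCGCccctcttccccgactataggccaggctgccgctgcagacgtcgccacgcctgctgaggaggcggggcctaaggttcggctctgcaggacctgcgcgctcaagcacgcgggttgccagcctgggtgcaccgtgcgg

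All 10 members were expressed in every embryo, at levels that spanned from 2.89 FPKM (L3mbtl2 in a Dnmt3bCI/CI embryo) to 126 FPKM (Trim28 in an embryo labelled Dnmt3b-/-). In order of the mean over 9 embryos they were Trim28 with 97.3 FPKM, Ehmt2 with 37.9, Ehmt1 with 12.7, Cbx3 with 11.9, Setdb1 with 9.46, Max with 7.52, E2f6 with 7.44, Pcgf6 with 5.63, Mga with 3.80 and L3mbtl2 with 3.27 FPKM. In Dnmt3b+/+ embryos Trim28 stood at percentile 99.2 of the genes tested and L3mbtl2 at percentile 56.2. Over the 9 embryos the values of Ehmt1 and Cbx3 overlapped, as did those of Max and E2f6, of E2f6 and Pcgf6, and of Mga and L3mbtl2, while the other neighbours in this order were separate in every embryo. The H3K9 members thus held the first 3 places and the PRC1.6 subunits, apart from Cbx3, the last 5.

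**Figure D1:**
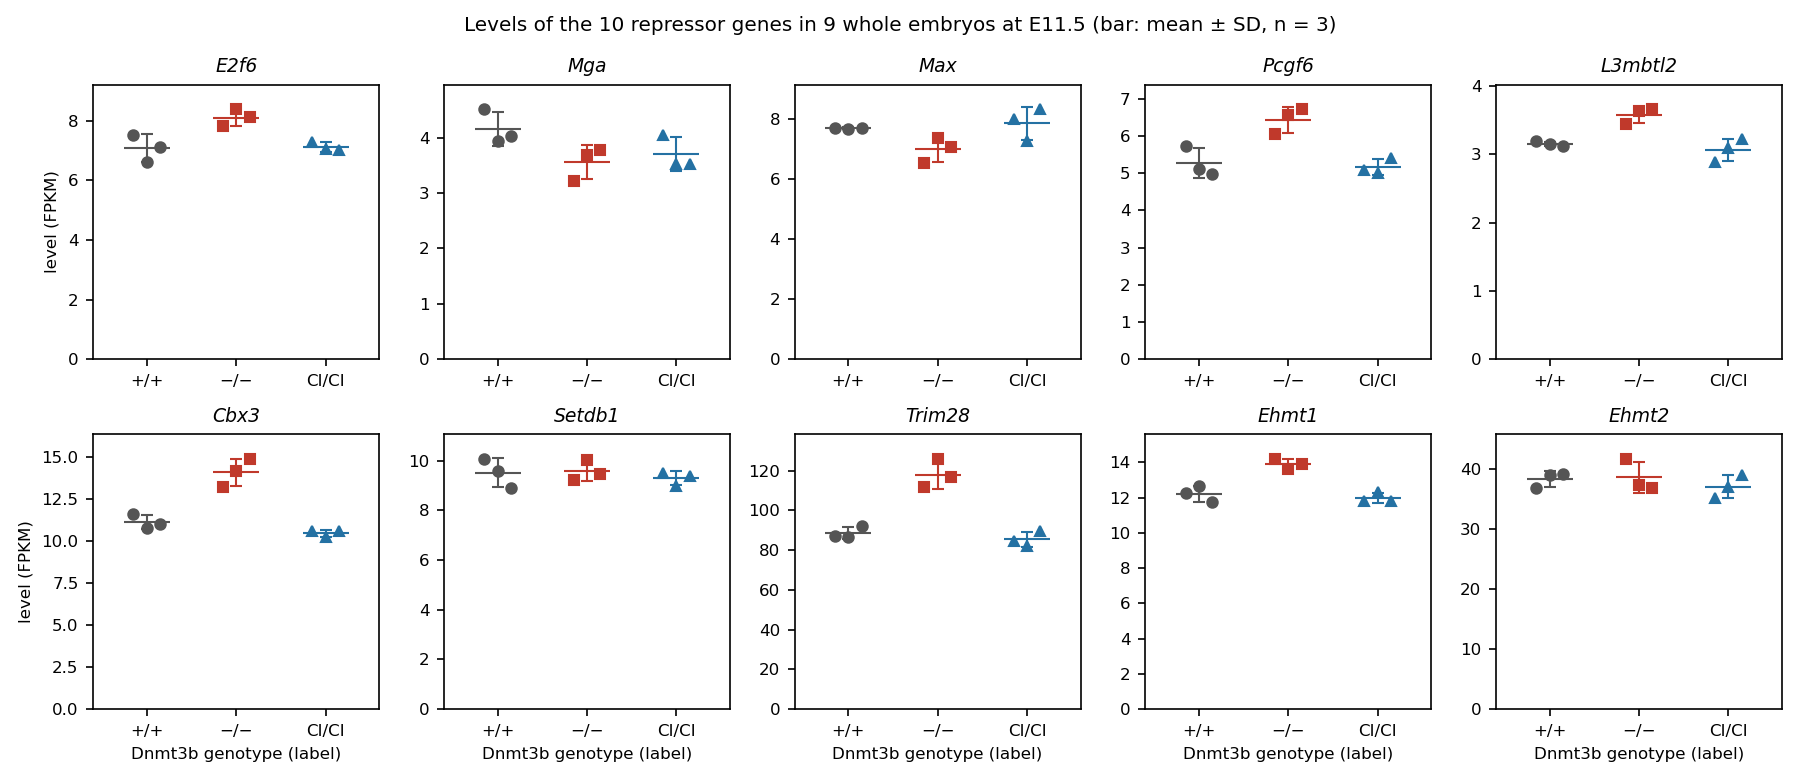
Level (FPKM, linear axis from 0) of each of the 10 genes in 9 embryos, by the labelled Dnmt3b genotype, with 1 point per embryo and the mean ± SD of 3. Trim28, Cbx3, Pcgf6 and Ehmt1 lie higher in all 3 embryos labelled Dnmt3b-/- than in the 6 others, while Setdb1 and Ehmt2 overlap between genotypes.

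In embryos labelled Dnmt3b-/-, 4 of the 10 members, Trim28, Cbx3, Pcgf6 and Ehmt1, were higher than in Dnmt3b+/+ embryos, none was lower, and none changed as much as 2-fold. Across all genes tested 9.41% were higher and 16.4% lower, with 1.07% and 3.38% past 2-fold. The 2-fold shares, 208 and 655 genes, were 60 and 133 genes with a pseudocount of 1 FPKM, and 226 and 1174 without Dnmt3b-/- replicate 1. Without the fold limit 1826 genes were higher and 3175 lower, and with quantile normalization 2236 were higher and 2044 lower. Leaving out single embryos gave from 808 higher and 1580 lower, without Dnmt3b-/- replicate 2, to 2323 higher and 4536 lower, without Dnmt3b-/- replicate 1. The median log2 fold change was 0.18 over the members and −0.07 over all genes. The groups of 3 embryos did not overlap for 8 members, with 6 above and 2 below Dnmt3b+/+, against 15.1% of all genes above and 23.8% below. The 4 that rose did so by 1.14 to 1.33-fold. Of the libraries that markers set apart, leaving out Dnmt3b+/+ replicate 1 or Dnmt3bCI/CI replicate 3 gave a count of 4, leaving out Dnmt3b+/+ replicate 2 gave 3 and leaving out Dnmt3b-/- replicate 1 gave 5. It fell to 2 without Dnmt3b+/+ replicate 3, without Dnmt3b-/- replicate 2 or without Dnmt3b-/- replicate 3.

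Among the DNA-binding subunits of PRC1.6, none passed the test. E2f6, located at chr12:16810963-16839742 (GRCm38, plus strand), had 7.53, 6.61 and 7.14 FPKM in Dnmt3b+/+ embryos, 7.81, 8.38 and 8.12 in embryos labelled Dnmt3b-/-, and 7.30, 7.04 and 7.01 in Dnmt3bCI/CI. Its 3 values under the Dnmt3b-/- label were above the 6 others. The log2 fold change against Dnmt3b+/+ was 0.19 ± 0.06 (SE), with an adjusted p of 0.0502 by limma, next to the threshold. It passed the threshold without Dnmt3b+/+ replicate 1 (adjusted p of 0.036 by limma) and without Dnmt3b-/- replicate 1 (0.037).

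Mga and Max, the other DNA-binding pair, lay on the opposite side. Mga (chr2:119897228-119969581, plus strand) had 4.51, 3.93 and 4.03 FPKM in Dnmt3b+/+, 3.21, 3.69 and 3.77 in Dnmt3b-/-, and 4.05, 3.52 and 3.52 in Dnmt3bCI/CI. The embryos labelled Dnmt3b-/- were all below those of Dnmt3b+/+ but overlapped with Dnmt3bCI/CI. The log2 fold change was −0.22 ± 0.09, with an adjusted p of 0.111 by limma. Max (chr12:76937269-76962201, minus strand) had 7.70, 7.66 and 7.72 FPKM in Dnmt3b+/+, 6.55, 7.36 and 7.07 in Dnmt3b-/-, and 8.01, 7.26 and 8.32 in Dnmt3bCI/CI. Again the Dnmt3b-/- group was below Dnmt3b+/+ and overlapped with Dnmt3bCI/CI, with a log2 fold change of −0.14 ± 0.07 and an adjusted p of 0.162 by limma.

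The remaining PRC1.6 subunits lay higher under the Dnmt3b-/- label. Cbx3 (chr6:51470360-51483704, plus strand) had 11.6, 10.8 and 10.99 FPKM in Dnmt3b+/+, 13.2, 14.2 and 14.9 in Dnmt3b-/-, and 10.6, 10.2 and 10.6 in Dnmt3bCI/CI. It rose 1.26-fold (95% interval 1.15 to 1.38), a log2 fold change of 0.34 ± 0.06 with an adjusted p of 0.00538 by limma. Every embryo labelled Dnmt3b-/- exceeded every other embryo. Pcgf6 (chr19:47033617-47050906, minus strand) had 5.74, 5.12 and 4.98 FPKM in Dnmt3b+/+, 6.05, 6.56 and 6.71 in Dnmt3b-/-, and 5.09, 4.999 and 5.40 in Dnmt3bCI/CI. It rose 1.22-fold (1.08 to 1.36), with a log2 fold change of 0.28 ± 0.07 and an adjusted p of 0.0244 by limma. The groups were again separate, but this call was lost without Dnmt3b+/+ replicate 2 (adjusted p of 0.0655 by limma), Dnmt3b+/+ replicate 3 (0.0823), Dnmt3b-/- replicate 2 (0.0805) or Dnmt3b-/- replicate 3 (0.081).

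L3mbtl2 (chr15:81663889-81688315, plus strand) had 3.19, 3.15 and 3.13 FPKM in Dnmt3b+/+, 3.45, 3.64 and 3.66 in Dnmt3b-/-, and 2.89, 3.09 and 3.22 in Dnmt3bCI/CI. All 3 embryos labelled Dnmt3b-/- were above the others, with a log2 fold change of 0.18 ± 0.06 and an adjusted p of 0.074 by limma. L3mbtl2 shares 1023 exon bases with Chadl, which overlaps it, and without a stated strand setting the reads of both cannot be told apart. The like overlap was 249 bases for Setdb1 and 21 bases for Ehmt1, and 0 for the other 7 members.

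Of the H3K9 genes, Trim28 (chr7:12999114-13031035, plus strand) had 87.0, 86.8 and 91.9 FPKM in Dnmt3b+/+, 112, 126 and 117 in Dnmt3b-/-, and 84.6, 82.2 and 89.4 in Dnmt3bCI/CI. The span is that of GENCODE, and the RefSeq start site of the promoter shown above lies inside it. Trim28 rose 1.33-fold (95% interval 1.199 to 1.48), a log2 fold change of 0.41 ± 0.07 with an adjusted p of 0.00422 by limma, and the 3 embryos labelled Dnmt3b-/- stood clear of the other 6. This was the largest fitted difference of the 10 members, but with quantile normalization it was 0.245 on the log2 scale for Trim28 and 0.319 for Cbx3, so the order of these genes depends on the scaling. By contrast Setdb1 (chr3:95323525-95357202, minus strand), the methyltransferase that Trim28 brings to chromatin, had 10.1, 9.57 and 8.91 FPKM in Dnmt3b+/+, 9.24, 10.04 and 9.48 in Dnmt3b-/-, and 9.52, 8.97 and 9.39 in Dnmt3bCI/CI. Its groups overlapped and the fold was 1.01, with a 95% interval of 0.92 to 1.11 and an adjusted p of 0.898 by limma.

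The Ehmt pair was also uneven. Ehmt1 (chr2:24789928-24919614, minus strand) had 12.3, 12.7 and 11.8 FPKM in Dnmt3b+/+, 14.2, 13.6 and 13.9 in Dnmt3b-/-, and 11.8, 12.3 and 11.8 in Dnmt3bCI/CI. It rose 1.14-fold (1.05 to 1.23), with a log2 fold change of 0.18 ± 0.05 and an adjusted p of 0.0263 by limma. The groups did not overlap, and the call was lost without Dnmt3b+/+ replicate 1 (adjusted p of 0.0546 by limma), Dnmt3b+/+ replicate 3 (0.0879), Dnmt3b-/- replicate 2 (0.0599) or Dnmt3b-/- replicate 3 (0.0707). Ehmt2 (chr17:34898469-34914052, plus strand) had 36.8, 39.0 and 39.0 FPKM in Dnmt3b+/+, 41.6, 37.3 and 36.7 in Dnmt3b-/-, and 35.1, 37.0 and 38.9 in Dnmt3bCI/CI. These groups overlapped and the fold was 1.01 (0.906 to 1.116), with an adjusted p of 0.934 by limma.

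In embryos with the catalytically inactive protein, none of the 10 members passed the test against Dnmt3b+/+. By limma 0 members were under an unadjusted p of 0.05, against 5.25% of all genes, and 0.129% of all genes were higher and 0.0155% lower at an adjusted p under 0.05. Log2 fold changes ran from −0.16 (Mga) to 0.03 (Max), with a median of −0.04 over the members and 0.02 over all genes. The 95% intervals bound what was measured, and for Trim28 the interval was 0.87 to 1.07-fold, for Cbx3 0.86 to 1.03, for Pcgf6 0.87 to 1.099 and for Ehmt1 0.91 to 1.06. The 3 Dnmt3bCI/CI embryos were all below Dnmt3b+/+ for Cbx3 alone, against 5.65% of all genes, and the other 9 members overlapped.

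**Figure D2:**
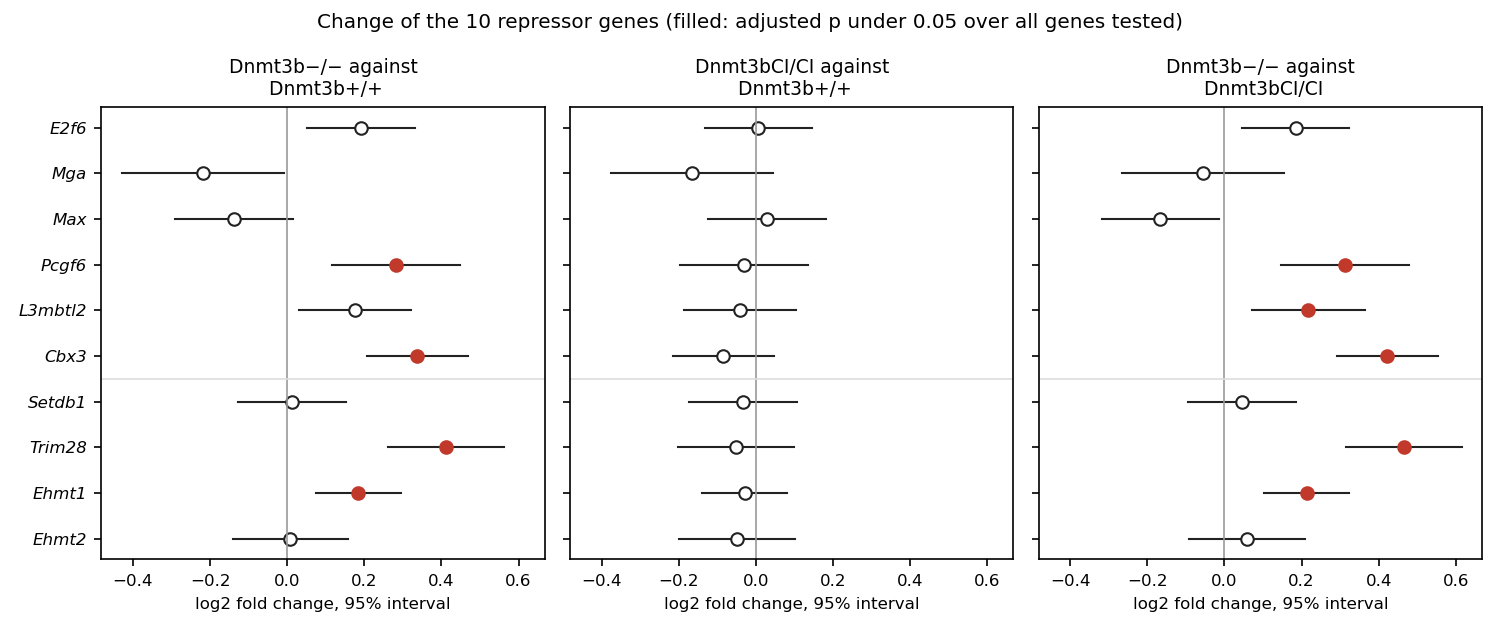
Log2 fold change of each of the 10 genes with its 95% interval in 3 contrasts (x axis, log2 scale; rows, genes with PRC1.6 subunits above the grey line). Filled points have an adjusted p under 0.05 over all genes tested, 4 in Dnmt3b-/- against Dnmt3b+/+, 0 in Dnmt3bCI/CI against Dnmt3b+/+ and 5 in Dnmt3b-/- against Dnmt3bCI/CI.

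Set directly against Dnmt3bCI/CI embryos, those labelled Dnmt3b-/- had higher levels of 5 members, Trim28, Cbx3, Pcgf6, Ehmt1 and L3mbtl2, and lower levels of none, against 9.7% and 18.2% of all genes. These shares are 1882 and 3525 genes, or 2840 and 2281 with quantile normalization. Leaving out single embryos gave from 1016 higher and 2131 lower, without Dnmt3b-/- replicate 2, to 2387 higher and 4812 lower, without Dnmt3b-/- replicate 1, and the lower count was least, 1954, without Dnmt3b-/- replicate 3. This contrast shares the Dnmt3b-/- embryos with the first. Trim28 was 1.38-fold higher (95% interval 1.24 to 1.53, adjusted p of 0.00227 by limma) and Cbx3 1.34-fold higher (1.22 to 1.47, 0.00199). Pcgf6 was 1.24-fold higher (1.11 to 1.39, adjusted p of 0.0153 by limma), Ehmt1 1.16-fold higher (1.07 to 1.25, 0.0141) and L3mbtl2 1.16-fold higher (1.05 to 1.29, 0.0358). The L3mbtl2 call was lost without Dnmt3b+/+ replicate 3, Dnmt3b-/- replicate 2 or replicate 3, or any 1 of the 3 Dnmt3bCI/CI embryos, with adjusted p of 0.0536 to 0.121 by limma in these 6 fits. The Pcgf6 call was lost without Dnmt3b-/- replicate 2 or replicate 3 or Dnmt3bCI/CI replicate 1 or replicate 2 (adjusted p of 0.054 to 0.0571 by limma), and the Ehmt1 call without Dnmt3bCI/CI replicate 1 or replicate 3 (0.0533 and 0.0548). E2f6 had a log2 difference of 0.18 and an adjusted p of 0.0532 by limma, and it passed without Dnmt3b+/+ replicate 1 (0.0476), Dnmt3b+/+ replicate 2 (0.0334) or Dnmt3b-/- replicate 1 (0.0396). Max had −0.17, with an adjusted p of 0.0957 by limma. Without Dnmt3bCI/CI replicate 1 the count of 5 fell to 2, and it was 3 without Dnmt3bCI/CI replicate 2, Dnmt3bCI/CI replicate 3, Dnmt3b-/- replicate 2 or Dnmt3b-/- replicate 3.

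Ratios between members within an embryo do not change when a whole library is scaled by 1 factor, but quantile normalization can change them. Pairs were chosen after the values were seen, so the ratios are given without a test. The ratio of E2f6 to Mga was 1.67, 1.68 and 1.77 in Dnmt3b+/+ embryos, 2.43, 2.27 and 2.15 in those labelled Dnmt3b-/- and 1.80, 2.00 and 1.99 in Dnmt3bCI/CI. Pcgf6 to Mga was 1.27 ± 0.03, 1.81 ± 0.06 and 1.40 ± 0.14 (SD, n = 3) in the same order, and L3mbtl2 to Mga 0.762 ± 0.048, 1.01 ± 0.06 and 0.836 ± 0.107. In all of these the Dnmt3b-/- group was above both others. Mga to Max stayed within an overlapping range, with 0.540 ± 0.039, 0.508 ± 0.022 and 0.471 ± 0.043. Trim28 to Setdb1 was 9.34 ± 0.87 in Dnmt3b+/+, 12.3 ± 0.2 in Dnmt3b-/- and 9.20 ± 0.32 in Dnmt3bCI/CI, and Ehmt1 to Ehmt2 was 0.320 ± 0.017, 0.362 ± 0.019 and 0.324 ± 0.018.

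**Figure D3:**
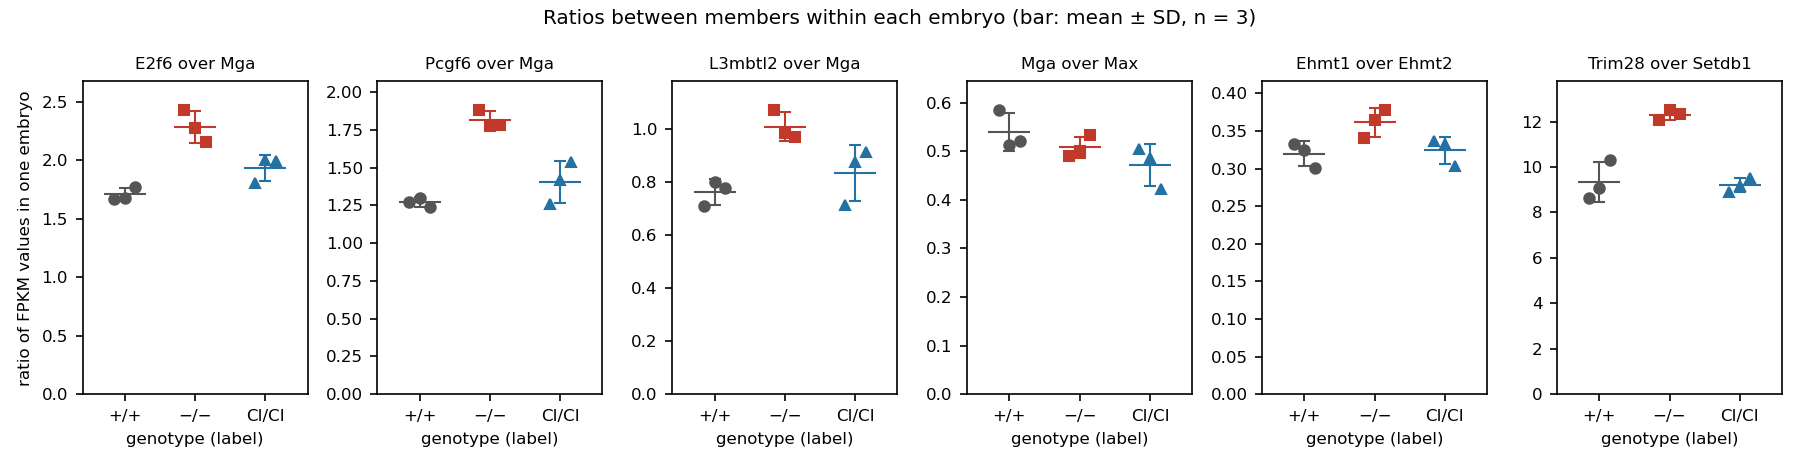
Ratio of the FPKM values of pairs of members within each embryo (linear axis from 0), by labelled genotype, with 1 point per embryo and the mean ± SD of 3. The ratios of E2f6, Pcgf6 and L3mbtl2 to Mga and of Trim28 to Setdb1 lie higher in all 3 embryos labelled Dnmt3b-/-, and Mga over Max overlaps between genotypes.

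The genes whose profile over the 9 embryos was nearest to that of a member that rose were found by the root mean square (RMS) difference of mean-centred log2 values. For Trim28 they were Ppm1d, Nt5dc2 and Wbp11 (RMS 0.0394, 0.0414 and 0.0441), and for Cbx3 they were Tra2a, Ruvbl2 and Dnmt1 (0.0315, 0.0378 and 0.0384). Dnmt1, the maintenance DNA methyltransferase, had a mean of 25.4 FPKM in Dnmt3b+/+ and 32.9 FPKM in Dnmt3b-/-. No test of this RNA difference is given, and the paper reports Dnmt1 protein as unchanged by immunoblot at E11.5. For Pcgf6 they were Exoc4, Irs2 and Cars (0.0354, 0.0376 and 0.039), and for Ehmt1 Exoc5, Arl2bp and Gtf3c1 (0.0288, 0.0297 and 0.0314). The members' own RMS around their mean was 0.215 (Trim28), 0.189 (Cbx3), 0.156 (Pcgf6) and 0.0998 (Ehmt1).

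The other genes of these pathways were read from 6 lists with 48 genes, all of them tested. In embryos labelled Dnmt3b-/-, 13 were higher and 8 lower than in Dnmt3b+/+, against 9.41% and 16.4% of all genes, and none changed by 2-fold. In Dnmt3bCI/CI embryos 0 passed the test in either direction by limma, with 1 under an unadjusted p of 0.05. The median log2 fold change was 0.13 in the first and −0.04 in the second. Against Dnmt3bCI/CI, 16 were higher and 6 lower under the Dnmt3b-/- label, against 9.7% and 18.2% of all genes. These counts moved with single libraries, and the 13 fell to 8 without Dnmt3b+/+ replicate 3, Dnmt3b-/- replicate 2 or Dnmt3b-/- replicate 3. The 8 fell to 2 without any of these 3 or without Dnmt3b+/+ replicate 1, to 3 without Dnmt3b+/+ replicate 2 and to 5 without Dnmt3bCI/CI replicate 3. The 16 fell to 7 without Dnmt3b-/- replicate 2 or Dnmt3bCI/CI replicate 1, to 9 without Dnmt3bCI/CI replicate 2 or replicate 3 and to 10 without Dnmt3b-/- replicate 3, and the 6 fell to 2 without Dnmt3b-/- replicate 2 or Dnmt3bCI/CI replicate 3 and to 3 without Dnmt3b-/- replicate 3 or Dnmt3bCI/CI replicate 1.

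Of 9 further PRC1.6 partners, 3 rose in embryos labelled Dnmt3b-/-, against 9.41% of all genes. Yaf2, which takes the place of Rybp in the complex, rose 1.33-fold, Tfdp1, the Dp partner of E2F proteins, 1.27-fold, and the histone deacetylase Hdac1 1.34-fold (adjusted p of 0.00886, 0.0291 and 0.0171 by limma). The other 6 did not pass. Of 7 other E2F genes, E2f5, E2f3 and E2f7 rose, against the same share of all genes, by 1.596, 1.31 and 1.34-fold (adjusted p of 0.000418, 0.0351 and 0.05 by limma, the last just inside the threshold).

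The Max network, whose proteins compete for Max, was the list with the most mixed directions, with 1 of 8 genes higher and 3 lower, against 9.41% and 16.4% of all genes. Mycn rose 1.34-fold (adjusted p of 0.0106 by limma), whereas Myc fell to 0.65 of its Dnmt3b+/+ level (0.0181), Mxd1 to 0.73 (0.0318) and Mxd4 to 0.74 (0.0305). Mycn had 10.4, 11.1 and 10.3 FPKM in Dnmt3b+/+ and 12.4, 15.9 and 14.5 in Dnmt3b-/-, while Myc had 7.77, 7.26 and 9.21 against 5.18, 6.38 and 4.23 FPKM. Neither pair of groups overlapped.

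Of 14 other H3K9 genes, 6 rose and none fell, against 9.41% and 16.4% of all genes. Suv39h2, an enzyme that trimethylates H3K9, rose 1.77-fold, from 3.68, 2.74 and 3.12 FPKM to 4.95, 5.96 and 6.13 FPKM (adjusted p of 0.00306 by limma). Uhrf1, which binds hemimethylated DNA and brings in Dnmt1, rose 1.69-fold (0.00376), and Cbx1 (HP1 beta) 1.34-fold (0.00725). Pphln1, a subunit of the HUSH complex that spreads H3K9 methylation, rose 1.27-fold (adjusted p of 0.0203 by limma). Of 6 H3K9 demethylases 2 fell, where 16.4% of all genes were lower, none rose and the other 4 did not pass. Jmjd1c fell to 0.75 and Kdm4c to 0.82 of the Dnmt3b+/+ level (adjusted p of 0.00842 and 0.0296 by limma). Of 4 KRAB zinc finger genes, whose proteins recruit Trim28, Zfp809, Zfp57 and Zfp445 fell, to 0.77, 0.80 and 0.86 (0.0262, 0.0463 and 0.0255), against the same 16.4%, and the fourth did not pass.

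**Figure D4:**
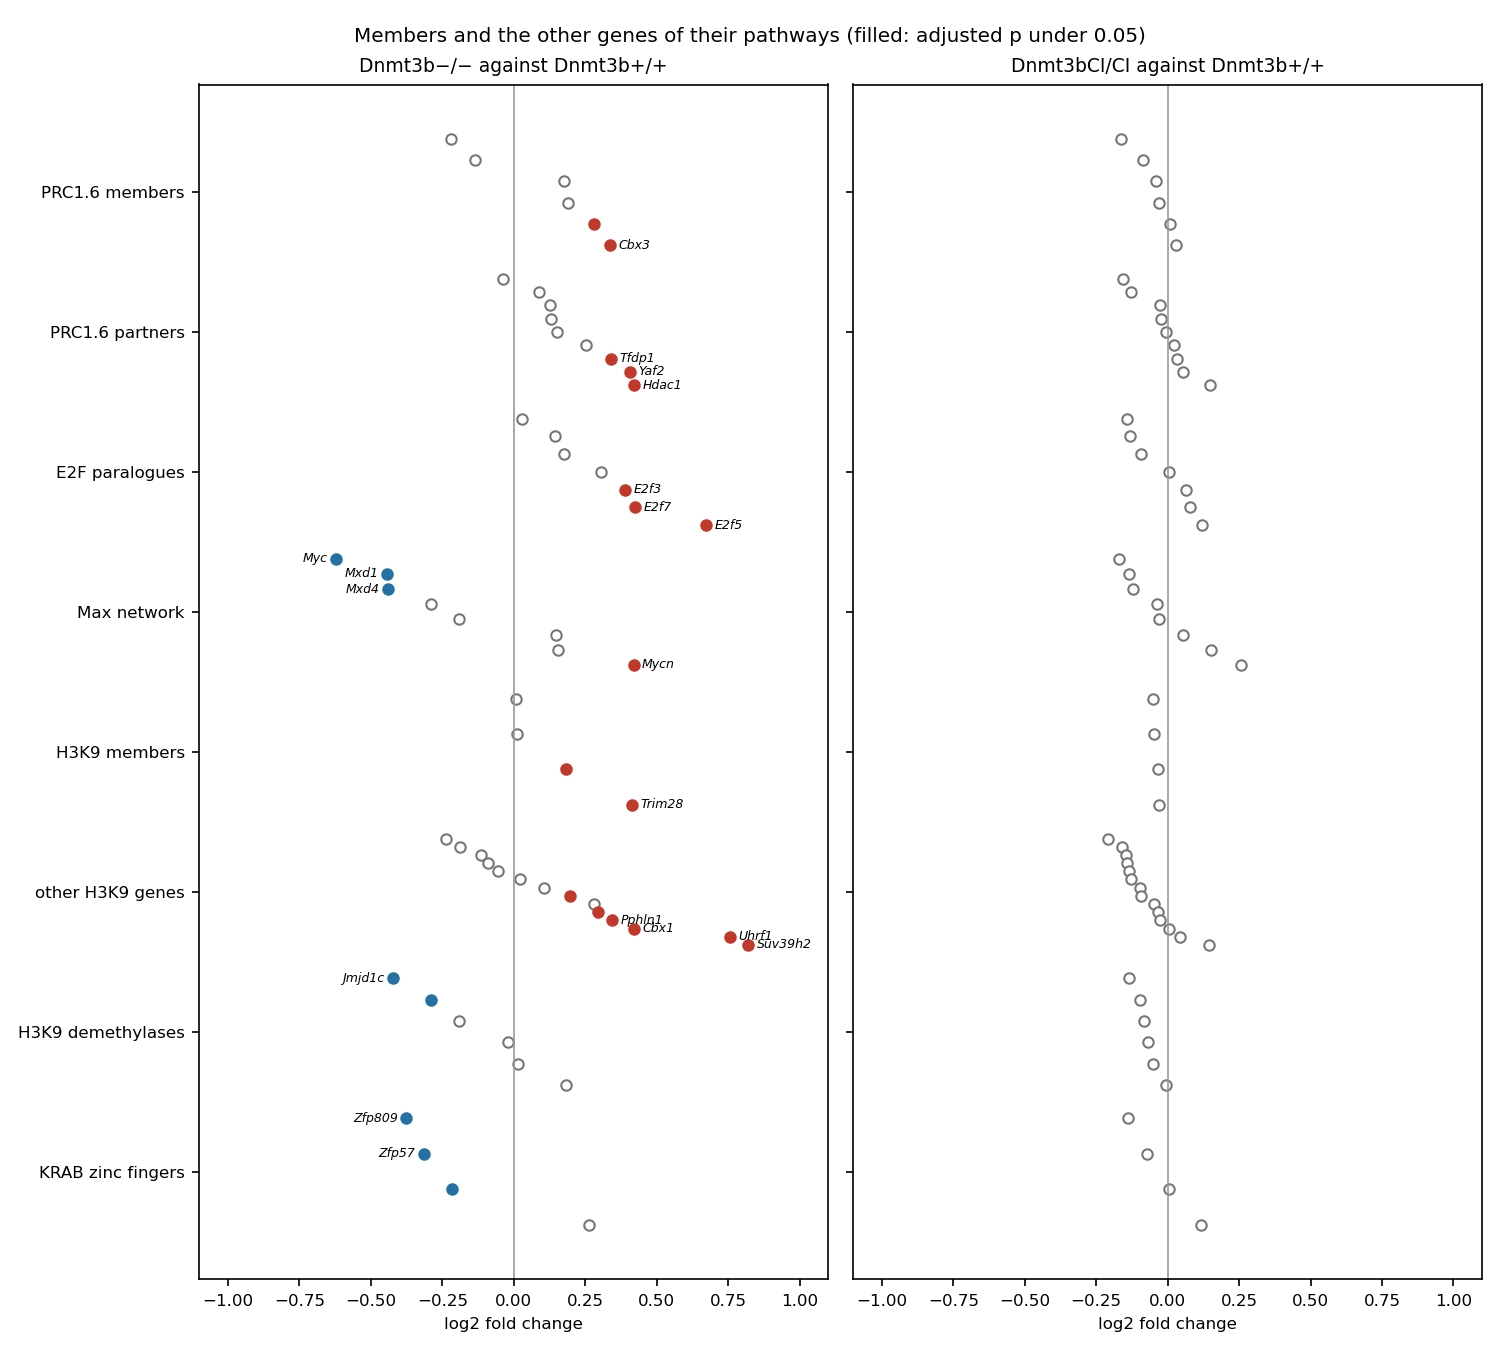
Log2 fold change of the members and of 48 other genes of their pathways, 1 point per gene, by list (rows), in Dnmt3b-/- against Dnmt3b+/+ and in Dnmt3bCI/CI against Dnmt3b+/+. Filled red points are higher and filled blue points lower at an adjusted p under 0.05; in the second contrast no point is filled.

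Genes of proliferating cells moved in the same direction as the members that rose. Of 8 proliferation markers 7 were higher in embryos labelled Dnmt3b-/- than in Dnmt3b+/+, against 9.41% of all genes, and their summed level was 112 to 165 FPKM in Dnmt3b+/+, 176 to 223 in Dnmt3b-/- and 122 to 138 in Dnmt3bCI/CI. The count of 7 was 4 without Dnmt3b+/+ replicate 2, Dnmt3b+/+ replicate 3 or Dnmt3b-/- replicate 3, and 2 without Dnmt3b-/- replicate 2. It was also 4 with no filter on low values, with the replicate number as a block and when only the genotypes compared were fitted. Markers of cartilage (6 of 6) and of skeletal muscle (4 of 5) were lower, against 16.4% of all genes, with summed levels of 140 to 210 FPKM and 115 to 214 FPKM in Dnmt3b+/+ against 79.5 to 126 and 79.4 to 101 FPKM in Dnmt3b-/-, and 2 of 5 erythroid genes were higher, with a summed level of 1329 to 2064 FPKM in Dnmt3b+/+, 1779 to 5697 in Dnmt3b-/- and 1147 to 1568 in Dnmt3bCI/CI. Without Dnmt3b+/+ replicate 2 the counts were 4 of 6 and 2 of 5 lower. Among hepatocyte genes 1 of 5 was lower, and without Dnmt3b+/+ replicate 2, the library with almost no Afp and Alb, 4 of 5 were lower. The summed hepatocyte level was 225.7, 35.8 and 124 FPKM in Dnmt3b+/+, 43.8 to 90.6 in Dnmt3b-/- and 134 to 162 in Dnmt3bCI/CI. The summed cardiac level was 4.48, 99.4 and 29.0 FPKM in Dnmt3b+/+, 26.5, 116 and 64.9 in Dnmt3b-/- and 79.3, 97.2 and 7.36 in Dnmt3bCI/CI. The summed neuronal level was 186, 363 and 225 FPKM in Dnmt3b+/+, 286, 159 and 151 in Dnmt3b-/- and 217 to 256 in Dnmt3bCI/CI, so that replicates 2 and 3 of Dnmt3b-/- lay below every Dnmt3b+/+ embryo. In the fit of all embryos 0 of 6 neuronal, 0 of 5 cardiac and 0 of 4 endothelial genes passed the test by limma, with 1, 0 and 1 under an unadjusted p of 0.05. The part of these cell types in the members' differences was not tested.

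The germline genes that these repressors act on were read beside them. Of the 5 listed E2f6 targets, Stag3 rose in embryos labelled Dnmt3b-/- and in Dnmt3bCI/CI, and it alone reached 0.1 FPKM in all 3 Dnmt3b+/+ embryos. Slc25a31 and Tuba3a passed the low-value filter mainly through the mutant embryos, in which they are higher. Their values against Dnmt3b+/+ are therefore a description, with no test. Tuba3b would not have passed the low-value filter without the Dnmt3b-/- embryos, in which it is high, so no test of it is given. Smc1b, with at most about 12 reads in a library, was too low to test.

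Slc25a31 had 0.0947, 0.132 and 0.0839 FPKM in Dnmt3b+/+, 14.2, 13.3 and 12.2 in Dnmt3b-/- and 4.14, 3.99 and 3.23 in Dnmt3bCI/CI. Its fitted log2 fold change was 6.03 ± 0.13 in Dnmt3b-/- and 4.25 ± 0.13 in Dnmt3bCI/CI, and no p is given for it. The 3 groups did not overlap. The Dnmt3b+/+ level lay near the pseudocount of 0.1 FPKM, so the size of the fold depends on it. Over the 18 alternatives the log2 fold change was 3.68 to 6.88 in Dnmt3b-/- and 2.11 to 5.08 in Dnmt3bCI/CI. Stag3 had 1.15, 1.70 and 1.81 FPKM in Dnmt3b+/+, 4.66, 5.04 and 4.92 in Dnmt3b-/-, and 3.49, 3.58 and 3.20 in Dnmt3bCI/CI. It rose by 1.61 ± 0.15 and 1.11 ± 0.15 on the log2 scale, with adjusted p of 0.000399 and 0.029 by limma. The second of these calls held in 2 of 9 fits that each left out 1 embryo, those without Dnmt3b+/+ replicate 1 and without Dnmt3b+/+ replicate 3, and in the other 7 the adjusted p was 0.0501 to 0.185 by limma.

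Of the testis tubulin genes, Tuba3a had 0.193, 0.0665 and 0.0676 FPKM in Dnmt3b+/+, 5.73, 10.7 and 8.33 in Dnmt3b-/-, and 0.310, 0.490 and 0.207 in Dnmt3bCI/CI, and Tuba3b had 11.2, 16.3 and 11.1 FPKM in Dnmt3b-/- and 0.0753, 0.130 and 0.117 in Dnmt3bCI/CI. Tuba3b had 2, 1 and 0 reads in the Dnmt3b+/+ libraries, so no fold is given against them. The values of Tuba3b are a description, with no test, since it was measured above the filter mainly in the group in which it is high. Between the mutants Tuba3a was higher under the Dnmt3b-/- label by 4.27 ± 0.33 on the log2 scale (adjusted p of 0.000255 by limma), while Slc25a31 was higher by 1.78 ± 0.13 and Stag3 by 0.50 ± 0.15 (0.000187 and 0.0354). The Dnmt3bCI/CI level of Tuba3a lay near the pseudocount, and over the 18 alternatives its difference ran from 2.76 to 4.62 and was called in all of them. The Stag3 difference was lost without Dnmt3b-/- replicate 2 (adjusted p of 0.101 by limma), Dnmt3b-/- replicate 3 (0.095), Dnmt3bCI/CI replicate 1 (0.0836), replicate 2 (0.0727) or replicate 3 (0.108). Tuba3a and Tuba3b are close copies of each other, and how shared reads were assigned is not stated.

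**Figure D5:**
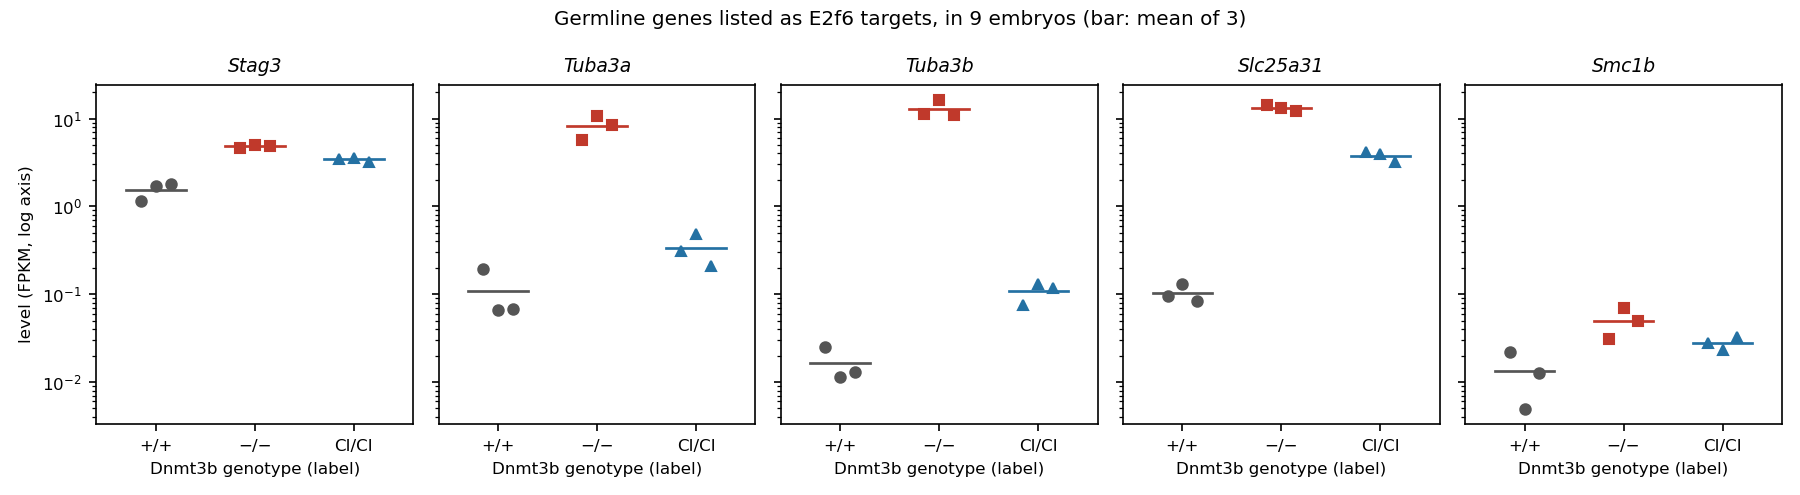
Level (FPKM, log axis) of the 5 germline genes listed as E2f6 targets in 9 embryos, by labelled genotype, with 1 point per embryo and a bar at the mean of 3. Slc25a31 and Stag3 are higher in both mutant genotypes than in Dnmt3b+/+, and Tuba3a and Tuba3b stand at 5.73 FPKM or more in the Dnmt3b-/- embryos alone.

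Of 30 other germline genes, 24 were tested, of which 21 were higher in embryos labelled Dnmt3b-/- and 8 in Dnmt3bCI/CI, and none was lower, against 9.41% and 0.129% of all genes higher. Of the 24, 9 would not have passed the low-value filter without the Dnmt3b-/- embryos, so the filter favours a difference and the share of tested genes is not support of its own. Others, Taf7l and Mael among them, reached 0.1 FPKM in the mutant embryos alone. The 8 that reached 0.1 FPKM in all 3 Dnmt3b+/+ embryos were Tdrkh, Sycp1, Sycp3, Tex15, Meioc, Dmc1, Tdrd1 and Brdt. Of these 5 were higher in Dnmt3b-/- and 3, Sycp1, Meioc and Tdrd1, in Dnmt3bCI/CI. With the E2f6 targets, 10 germline genes were higher in Dnmt3bCI/CI, and 6 without Dnmt3bCI/CI replicate 1. The count includes genes, Slc25a31 and Taf7l among them, that passed the filter mainly through the mutant embryos, so it is a description. The fitted log2 difference was largest for Taf7l, Mael, Syce1 and D1Pas1 in Dnmt3b-/-, and for Taf7l, Mael, Syce1 and Ddx4 in Dnmt3bCI/CI. This order rests on the pseudocount, since these genes were at or near 0 in Dnmt3b+/+. They passed the low-value filter mainly through the mutant embryos, in which they are high, so no p is given for them. D1Pas1, one of the 9 genes, had 2.48, 2.04 and 1.89 FPKM in Dnmt3b-/-, 0.139, 0.201 and 0.0486 in Dnmt3bCI/CI and at most 0.0313 in Dnmt3b+/+. By the ratio of mean FPKM Tex11 stood above Ddx4 in Dnmt3bCI/CI. Taf7l, a germline relative of a TFIID subunit, had 3, 3 and 2 reads in Dnmt3b+/+, so no fold is given, and 7.64, 4.87 and 6.49 FPKM in Dnmt3b-/- and 3.98, 3.58 and 3.88 FPKM in Dnmt3bCI/CI. Mael, which acts in transposon silencing in germ cells, had 0.0646, 0.0463 and 0.0588 FPKM in Dnmt3b+/+, 6.93, 5.84 and 4.97 in Dnmt3b-/- and 1.40, 2.05 and 1.62 in Dnmt3bCI/CI. For both genes the 3 genotypes were separate, with Dnmt3bCI/CI between the others. Of 6 markers of primordial germ cells, 4 were tested and Dnd1 alone was higher in Dnmt3b-/- (adjusted p of 0.0265 by limma). The other 3 did not pass and lay on the opposite side, with log2 differences of −0.60 (Nanos3), −0.55 (Pou5f1) and −0.54 (Dppa3). Nanos3 was below every Dnmt3b+/+ embryo, with an adjusted p of 0.0675 by limma. The summed level of the 6 markers, which joins these opposite differences, was 1.71 to 2.00 FPKM in Dnmt3b+/+, 1.46 to 2.05 in Dnmt3b-/- and 1.77 to 2.08 in Dnmt3bCI/CI. The defining markers Nanog and Prdm14 were too low to test. In Dnmt3bCI/CI embryos the germline genes that rose did so beside 10 members of which none passed the test, and in embryos labelled Dnmt3b-/- beside 4 members that passed it, all higher. Mga and Max lay below every Dnmt3b+/+ embryo there without passing the test, E2f6 and L3mbtl2 above without passing it, and Setdb1 and Ehmt2 overlapped.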

How the data were processed

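RNA-seq libraries of 9 whole embryos were analysed, 3 per genotype, grouped by the sample labels. Reads were aligned by the authors with STAR to mm10 and filtered on mapping quality, and the authors quantified genes in SeqMonk and deposited FPKM values on the linear scale in 1 table. The annotation release and strand setting are not given in the sources used here. The bisulfite libraries were not analysed here. The 1 row of 34245 without a gene name was left out. Genes without reads carry a floor worth 0.9 reads, and reads were worked back from it with GENCODE M21 exon lengths, which gave whole numbers within 0.02 for 98.7% of genes with low reads. For Pcgf6 and Smc1b this was approximate.

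The test took the 19397 genes that reached 0.1 FPKM in 3 or more of the 9 embryos. Values entered limma (version 3.58.1, run in R version 4.3.3) as log2(FPKM + 0.1), in 1 model with 3 genotypes and a variance trend, with Benjamini-Hochberg adjustment and 95% intervals. The study used DESeq2 on counts, which were not used here. The procedure was also run on simulated data, and the outcome is not given here. The members and gene lists were chosen with earlier results of these data known. The genes named were all members, the E2f6 targets, up to 4 genes per direction from each pathway and germline list by largest change among those with an adjusted p under 0.05, and the 3 nearest profiles of each member that rose. Marker lists of cell types are given as counts and sums. Nothing says whether embryos shared a litter, so p-values measure the spread between these embryos. Promoters came from RefSeq for GRCm38.p6, and all 10 members and 5 targets were matched by symbol. Figures were drawn with matplotlib 3.10.9 under python 3.11.15. Alternatives were 2 other pseudocounts (0.01 and 1 FPKM), no filter, a filter at 1 FPKM, 2 other scalings, no variance trend, a replicate block, only the genotypes compared, and leaving out each embryo, 18 in all.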

Additional observations from a re-analysis of the deposited data

How the results depend on the processing

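Trim28 and Cbx3 were called higher in embryos labelled Dnmt3b-/- against both other genotypes under all 18 alternatives. The log2 difference of Trim28 ran from 0.245 (quantile normalization) to 0.453 against Dnmt3b+/+ and from 0.324 to 0.505 against Dnmt3bCI/CI, and that of Cbx3 from 0.298 to 0.382 and from 0.383 to 0.467. Against Dnmt3b+/+, Pcgf6 was called in 12 of 18, Ehmt1 in 11, E2f6 in 4 and L3mbtl2 in 1. No member was called in Dnmt3bCI/CI against Dnmt3b+/+ under any of the 18. Against Dnmt3bCI/CI, Ehmt1 was called in 16 of 18, Pcgf6 in 14, L3mbtl2 in 10 and E2f6 in 7. With 3 embryos a genotype, both the spread between embryos and, for the lowest members, counting error limit what can be called. Where a call moved with a setting below, the cause was not tested.

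In Dnmt3b-/- against Dnmt3b+/+, the 8 partner and H3K9 genes that were lower became 5 with no filter, 5 with quantile normalization and 2 when only the genotypes compared were fitted. In that last fit the 4 members became 2 and the 13 higher partner genes became 7. With a filter at 1 FPKM, where fewer germline genes were tested, 13 of them were higher against Dnmt3b+/+ in place of 25, and 12 against Dnmt3bCI/CI in place of 21. Of the 28 germline genes tested 10, Tuba3b among them, would not have passed the filter without the Dnmt3b-/- embryos, so the counts of 25 and 21 describe the tables and are no support. Quantile normalization moved the median of all genes from −0.08 to 0.03 (log2) in Dnmt3b-/- against Dnmt3bCI/CI and from −0.07 to 0.03 against Dnmt3b+/+. Leaving out 1 embryo at a time gave 2 to 5 members higher than Dnmt3b+/+ and 2 to 6 higher than Dnmt3bCI/CI. The same fits gave 8 to 15 partner genes higher and 2 to 10 lower against Dnmt3b+/+, and 7 to 16 higher and 2 to 6 lower against Dnmt3bCI/CI. Germline genes higher numbered 6 to 9 in Dnmt3bCI/CI against Dnmt3b+/+ (6 without Dnmt3bCI/CI replicate 1) and 13 to 22 in Dnmt3b-/- against Dnmt3bCI/CI (13 without Dnmt3b-/- replicate 2).

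Differences that turned sign were all close to 0 and none of them was called. E2f6 in Dnmt3bCI/CI against Dnmt3b+/+ was −0.0071 with median-of-ratios scaling, −0.0129 with quantile normalization and −0.0428 to 0.0505 without single embryos. With quantile normalization Ehmt2 was −0.0852 in Dnmt3b-/- against Dnmt3b+/+ and Mga 0.0593 against Dnmt3bCI/CI. Without single embryos Setdb1 ran from −0.0337 to 0.0525 and Ehmt2 from −0.0468 to 0.0417 in Dnmt3b-/- against Dnmt3b+/+. In Dnmt3bCI/CI against Dnmt3b+/+, Max ran from −0.0129 to 0.0846, Pcgf6 from −0.0703 to 0.0303 and Setdb1 from −0.0782 to 0.0079, and Mga ran from −0.0973 to 0.015 in Dnmt3b-/- against Dnmt3bCI/CI.

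The embryos share replicate numbers across genotypes, but nothing says that a number marks a litter, and the deviations of same-numbered embryos of Dnmt3b-/- and Dnmt3b+/+ had correlations of −0.294, −0.340 and 0.004, so the numbers were not taken as pairs. With the replicate number as a block, 2 members in place of 4 were higher than Dnmt3b+/+, 2 partner genes in place of 8 were lower, 6 germline genes in place of 10 were higher in Dnmt3bCI/CI, and 10 partner genes in place of 16 were higher than Dnmt3bCI/CI.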
